A study of Mus musculus with 3 samples.

Results

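Zfp is the mouse prefix for genes named as zinc finger proteins, and 249 such genes were expressed above the intensity limit used here in bone marrow progenitor cells of wild type mice and of mice that carry a KDM1A transgene. A gene belonged to this set when its symbol in the platform annotation was Zfp followed by a number and when its intensity was 100 or more on at least 1 of the 3 arrays. Each gene was represented by its brightest probe set, a group of short probes for one transcript. The members were thus chosen by measured values, the brightest probe set and the limit of 100. Of 336 Zfp genes with a probe set of their own, 249 passed and 87 lay below the limit on all 3 arrays. Over the whole array, 10926 of 18193 genes passed the same limit.

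The 3 samples were bone marrow cells that were positive for Sca-1 and negative for lineage markers, taken at 10 weeks of age. One sample came from wild type C57BL/6J mice, one from Tg(Ly6a-KDM1A*v2, Line 6, and one from Tg(Ly6a-KDM1A*v2, Line 3, both on C57BL/6J. The construct joins the name of Ly6a, the gene for Sca-1, to KDM1A, the gene for the histone demethylase LSD1, and each line is 1 transgenic line. The labels used here do not say how many mice were pooled or of which sex. Each genotype had 1 array, so the differences below have no replicate error and carry no test or p-value. A fit that takes both lines as one group stands with the alternatives in the closing section, and the differences of Line 6 and Line 3 share the error of the single wild type array.

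Most Zfp genes encode proteins with tandem C2H2 zinc fingers, small folds that hold a zinc ion and read DNA. Many also carry a KRAB domain, which recruits the corepressor TRIM28 and the histone methyltransferase SETDB1 to silence retroelements and imprinted genes, and such genes lie in tandem clusters in the mouse genome. The same prefix covers unrelated proteins, such as the CCCH finger proteins of the Zfp36 family, which bind AU-rich elements in messenger RNAs and bring them to the CCR4-NOT deadenylase for decay. LSD1 removes methyl groups from histone tails and works in blood cells with zinc finger repressors.

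The promoters of 4 members show how different the genes under this one prefix are. They are given here for the brightest member (Zfp36), its paralogue Zfp36l1, and the members that were 2-fold higher (Zfp882) and 2-fold lower (Zfp11) in both lines. Each run holds the 250 bases before the RefSeq start on the gene's strand, from RefSeq assembly GRCm38.p6, and capitals mark matches to the motifs searched, which are spelled out further on.
Zfp36 (chr7:28379229-28379478, minus strand): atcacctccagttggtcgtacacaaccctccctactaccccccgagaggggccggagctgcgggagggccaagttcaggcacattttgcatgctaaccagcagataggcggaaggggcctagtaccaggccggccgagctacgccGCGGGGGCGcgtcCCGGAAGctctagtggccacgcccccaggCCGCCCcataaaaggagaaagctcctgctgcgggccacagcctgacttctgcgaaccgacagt
Zfp36l1 (chr12:80113014-80113263, minus strand): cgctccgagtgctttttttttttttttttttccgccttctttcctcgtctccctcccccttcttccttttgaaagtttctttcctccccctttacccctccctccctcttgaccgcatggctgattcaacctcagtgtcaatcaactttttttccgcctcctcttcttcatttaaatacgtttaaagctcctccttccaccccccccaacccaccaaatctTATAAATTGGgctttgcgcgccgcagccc
Zfp882 (chr8:71908356-71908605, plus strand): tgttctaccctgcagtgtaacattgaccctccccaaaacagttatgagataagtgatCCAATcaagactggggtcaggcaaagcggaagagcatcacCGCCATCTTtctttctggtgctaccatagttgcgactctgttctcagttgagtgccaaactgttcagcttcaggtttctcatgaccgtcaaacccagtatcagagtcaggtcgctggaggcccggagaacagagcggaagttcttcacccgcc
Zfp11 (chr5:129670089-129670338, minus strand): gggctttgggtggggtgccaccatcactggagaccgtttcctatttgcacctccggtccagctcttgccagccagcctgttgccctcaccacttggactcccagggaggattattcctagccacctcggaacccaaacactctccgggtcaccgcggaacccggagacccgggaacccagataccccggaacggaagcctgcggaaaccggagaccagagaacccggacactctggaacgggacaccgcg

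As a set, the Zfp genes were dimmer than other genes. Their intensities, in the arrays' own units and averaged over the 3 arrays, had a median of 296 against 748 over all 10926 genes, with quartiles at 163 and 623. Only 30 of the 249, or 12.0%, reached a mean of 1000, against 40.9% of all genes. The median member read 275 in wild type, 307 for Line 6 and 333 for Line 3. Of the 249, 207 were at 100 or more on all 3 arrays. Another 38 passed through one or both lines while below 100 in wild type, so they had to be higher in a line, and 2 passed through wild type alone. At the edge of the rule, the dimmest members by their highest array were Zfp647 (101 in Line 3), Zfp184 (101 in Line 3) and Zfp108 (104 in wild type), and the genes just outside were Zfp712 (98.9 in Line 6), Zfp618 (94.7 in wild type) and Zfp28 (94.4 in wild type).

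The 10 brightest members had varied roles. Zfp36, which encodes tristetraprolin, read 11556 in wild type, 7772 for Line 6 and 9261 for Line 3. Zfp91, an E3 ubiquitin ligase of the non-canonical NF-kB pathway, read 6274, 5939 and 6372 in the same order. Zfp36l2 read 5768, 5921 and 6321. These 3 genes were the brightest on every array, and of them only Zfp36 was lower in both lines. Zfp622, a factor of large ribosomal subunit maturation, read 3802, 3976 and 4410.2 on an _x_at probe set, whose probes may bind other transcripts. Its other, dimmer probe sets were all lower in both lines, by -0.12 to -0.45 in Line 6 and -0.12 to -0.83 in Line 3. Zfp207, a BUB3-binding protein of the mitotic spindle, read 3736, 4514 and 2901, so that it was highest in Line 6 and lowest in Line 3. Zfp217, a CoREST and LSD1 partner, read 3477, 3249 and 2708. Zfp871, Zfp263, Zfp516 and Zfp36l1 completed the 10, with mean intensities of 2918, 2495, 2444 and 2228.

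The first question was how the set differed between the transgenic lines and wild type. Differences are given as line minus wild type on the log2(intensity + 16) scale, on which 1 is a doubling of the value with 16 added, so changes of dim genes are understated. Of the 249 members, 162 were higher than wild type in both lines, where 49.0% of all genes were, and 38 were lower in both, where 30.2% of all genes were. The other 49 members had opposite signs in the lines. Among the 207 members at 100 or more on all 3 arrays, which could not pass through the lines alone, 128 (61.8%) were higher in both and 34 (16.4%) lower, against 48.8% and 30.3% of all genes under that filter. Over all 336 Zfp genes with no limit, 197 (58.6%) were higher and 64 (19.0%) lower, against 42.1% and 32.8%.

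The shift was small and its size depended on the scaling of the arrays. The median member difference was 0.20 in Line 6, which turned to -0.03 when each array was centred on its median, and 0.29 in Line 3, which was between 0.21 and 0.26 under quantile normalization, centring and cyclic loess. The medians over all genes were 0.07 in Line 6 and 0.12 in Line 3, and centring moved the Line 6 one to -0.17, so positive Line 6 differences smaller than that step, here and below, turn below 0 under centring. Among members with one direction in the lines, the higher ones made up 81.0% as deposited, 68.1% with centring, 69.7% with cyclic loess and 73.4% with quantile normalization. With centring 111 members were higher and 52 lower in both lines, where 26.9% and 38.8% of all genes were. With cyclic loess the counts were 124 and 54 (all genes 42.2% and 35.1%), and with quantile normalization 135 and 49 (all genes 45.8% and 31.8%). The standard deviation over the 249 members was 0.38 in Line 6 and 0.44 in Line 3, against 0.48 and 0.60 over all genes.

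**Figure D1:**
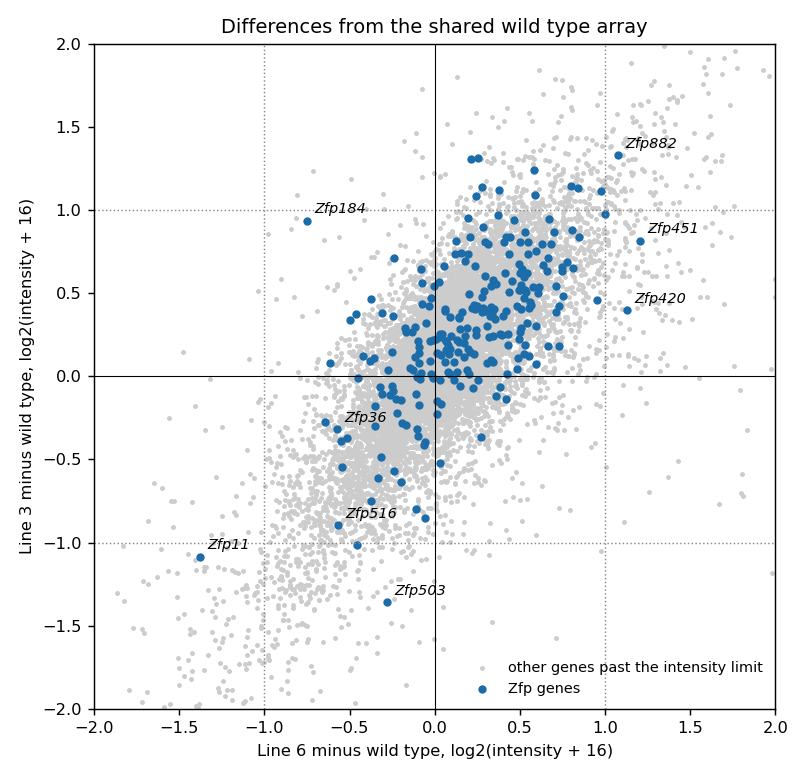
Difference of each gene from wild type in Line 6 (horizontal axis) and Line 3 (vertical axis), both as log2(intensity + 16), for the 249 Zfp genes (blue) and the other genes past the intensity limit (grey); dotted lines mark 2-fold, and 150 other genes outside the plotted range are not drawn. On the deposited scale 162 Zfp genes lie above 0 on both axes and 38 below 0 on both, where 49.0% and 30.2% of all genes do. Under centring on array medians these counts were 111 and 52, where 26.9% and 38.8% of all genes were.

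The median difference over all genes varied with brightness, so members were also set beside all genes of like brightness. In the range of mean intensity from 100 to 200, which held 62 members, the median member difference was 0.34 in Line 6 and 0.39 in Line 3, against 0.21 and 0.20 for all genes in that range. From 400 to 800 (53 members) it was 0.26 and 0.32 against 0.09 and 0.18, and from 800 to 1600 (34 members) 0.16 and 0.25 against 0.05 and 0.13. From 200 to 400 (67 members) the order turned in Line 6, with 0.09 for members and 0.13 for all genes, while Line 3 gave 0.28 and 0.22. For the 12 members at 1600 or more the medians were 0.03 and 0.08, close to the 0.02 and 0.04 of all genes. The 21 members below 100 on average had medians of 0.49 and 0.62, against 0.25 and 0.10 for all genes in that range. Most of these members, however, entered the set through a line. 

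**Figure D2:**
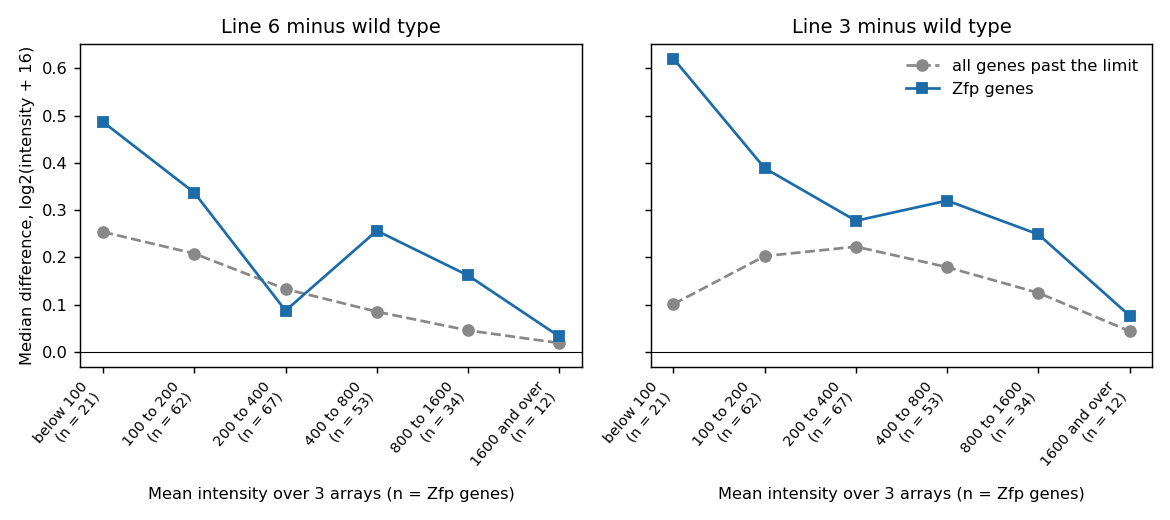
Median difference from wild type on the log2(intensity + 16) scale, deposited scaling, by mean intensity over the 3 arrays, for Zfp genes (blue squares, n under each range) and all genes past the limit (grey circles). The Zfp medians lie above those of all genes except at 200 to 400 in Line 6, and they near the other genes at 1600 and over, with 0.03 in Line 6 and 0.08 in Line 3.

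Few members reached a doubling. In both lines, 1 member was at least 2-fold higher, where 1.36% of all genes were, and 1 was at least 2-fold lower, where 2.05% of all genes were. At a limit of 1.5-fold, 21 members were higher in both lines (8.43%, against 6.34% of all genes) and 1 was lower (0.402%, against 5.35% of all genes). In Line 6 alone, 3 members were 2-fold higher (all genes 2.76%) and 1 was lower (all genes 2.39%). In Line 3, 11 were 2-fold higher (all genes 3.59%) and 3 were lower (all genes 4.39%). In Line 3, 59 members were past 1.5-fold higher (23.7%, all genes 15.2%) and 9 past 1.5-fold lower (3.61%, all genes 10.2%). In Line 6 these were 33 (13.3%, all genes 9.81%) and 4 (1.61%, all genes 6.83%). The 38 members below 100 in wild type passed only through a line and had to be higher there. Part of each count of members higher at 1.5-fold was therefore fixed by the limit, and so was part of the 2-fold counts in Line 3. With 100 required on all 3 arrays, the 11 higher in Line 3 became 6 and the 3 lower became 0.

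Zfp882 was the member 2-fold higher in both lines. Its probe set read 169.9 in wild type, 377 for Line 6 and 452 for Line 3, differences of 1.08 and 1.33. Line 6 lay just short of 2-fold under quantile normalization (0.94), cyclic loess (0.93) and centring (0.84), and the call ended with a pseudocount of 64 (0.91 in Line 6) and with the median of its probe sets (0.65). Its other probe set was dim, at 24.6, 31.5 and 56.3. Zfp704 came next, with 257 in wild type, 522 for Line 6 and 576 for Line 3 (0.98 and 1.12), and its second probe set read 209.8, 399 and 338. For both genes the ranking made wild type the lowest array on the brightest probe set, and wild type was also the lowest on the other one.

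Zfp664 read 200.4 in wild type, 416 for Line 6 and 409.8 for Line 3 on its brightest probe set, just short of 2-fold in each line (0.98 in Line 3). Its other probe set ran the opposite way, at 222, 165 and 122, differences of -0.40 and -0.79, so no direction holds for the gene over both. Zfp661 read 81.1, 158 and 197, and Zfp296, whose protein binds the NuRD complex, read 98.0, 189 and 188. Both were below 100 in wild type and passed the limit only through the lines.

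Zfp451, which encodes a SUMO ligase, had its largest difference in Line 6. It read 263 in wild type, 627 for Line 6 and 475 for Line 3 (1.21 and 0.82), but the median over its 5 probe sets gave 0.29 in Line 6, and the other 4 gave 0.09, 0.23, 0.70 and 0.23 there and 0.01, 0.24, -0.06 and -0.10 in Line 3. Zfp874a read 183, 332 and 350.4. Zfp369, which encodes a neurotrophin receptor interacting factor, was the brightest of the 10 leading higher genes, at 882, 1443 and 1623, and its second probe set went the same way (299, 401 and 474). Zfp606 read 287, 504 and 473, with both of its other probe sets higher in the lines too. Zfp213 read 101, 188 and 243, while its second probe set was lower in Line 3 than in wild type (80.7 against 113).

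Zfp11 was the member 2-fold lower in both lines. It read 115 in wild type, 34.4 for Line 6 and 45.7 for Line 3, differences of -1.38 and -1.08, so it passed the limit through wild type alone. It kept its 2-fold difference under the 3 other scalings and lost it with a pseudocount of 64 (-0.86 and -0.70), and it has 1 probe set. Zfp516, which encodes a regulator of thermogenic fat genes that binds LSD1, was bright and lower in both lines. Its brightest probe set, an _x_at set whose probes may bind other transcripts, read 3320.2 in wild type, 2232 for Line 6 and 1779 for Line 3 (-0.57 and -0.89), and its other, a plain probe set, read 478, 295 and 199 (-0.67 and -1.20). Wild type was the highest and Line 3 the lowest array on both probe sets.

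The other leading lower genes had a smaller difference than Zfp516 in at least one line. Zfp688 read 362 in wild type and 243 in both lines. Zfp408, mutated in a familial disease of retinal vessels in humans, read 1454, 987 and 1106. Zfp821 read 816, 626 and 478, and Zfp935 read 164, 110.3 and 123. Zfp710 read 1312, 1051 and 931, and its second probe set went the same way (901, 684 and 681). Zfp281, a regulator of pluripotency that binds NuRD, read 999, 791 and 647, but its second probe set was slightly higher in the lines (445, 502 and 489). Zfp385c read 105, 72.1 and 43.6, which was 2-fold lower in Line 3 (-1.02), and it was above the limit in wild type alone.

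**Figure D3:**
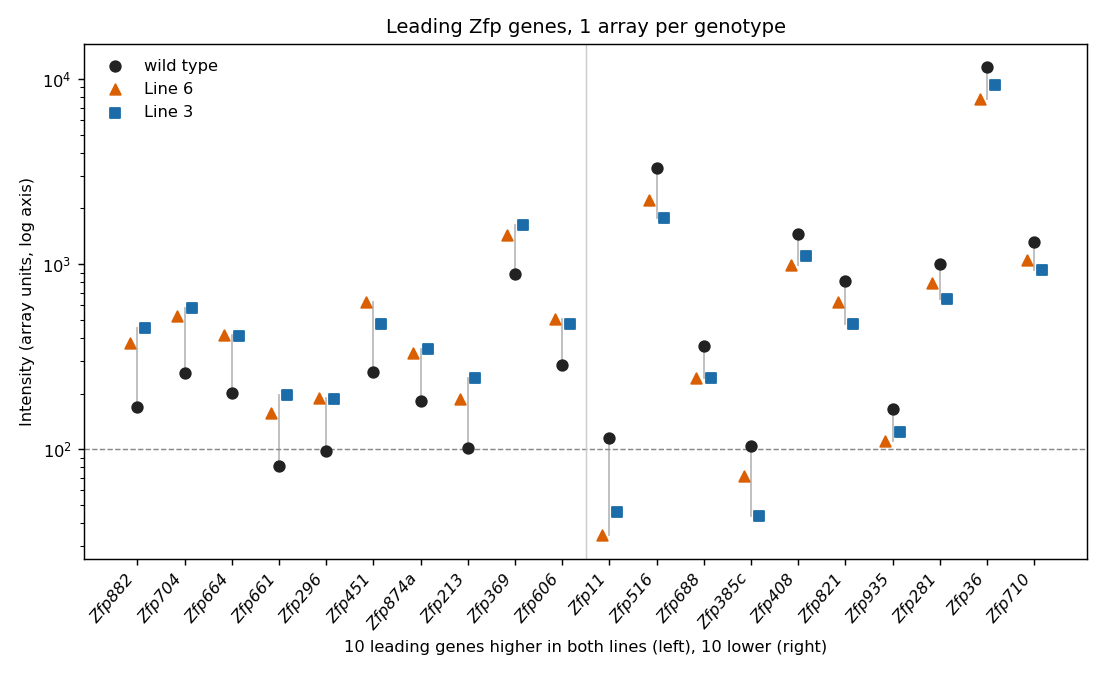
Intensity (log axis) of the 10 leading Zfp genes higher in both lines (left) and the 10 lower in both (right) on the wild type (circles), Line 6 (triangles) and Line 3 (squares) arrays; grey bars join the lowest and highest array, and the dashed line is the limit of 100. Among the lower genes, Zfp36 lies at 11556 in wild type and Zfp516 at 3320.2, while the brightest higher gene, Zfp369, lies at 882.

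Beyond the shared differences, the 11 members 2-fold higher in Line 3 were Zfp882, Zfp975, Zfp438, Zfp341, Zfp213, Zfp629, Zfp661, Zfp64, Zfp704, Zfp1 and Zfp94, of which Zfp341, Zfp64 and Zfp1 were named after their values were seen. Zfp1 read 155 in wild type, 242 for Line 6 and 349 for Line 3, and Zfp341 read 74.0, 119 and 197. Zfp341 passed the limit only through the lines, so wild type had to be its lowest array. Zfp661, Zfp975, Zfp438 and Zfp94 were likewise below 100 in wild type. Zfp64 read 166, 221 and 380. The 3 members 2-fold lower in Line 3 were Zfp503, Zfp11 and Zfp385c. In Line 6 the third member 2-fold higher, beside Zfp451 and Zfp882, was Zfp420, at 116 in wild type, 273 for Line 6 and 159 for Line 3.

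By role, the CCCH factors of mRNA decay did not move as a group. Zfp36 was lower in both lines (-0.57 and -0.32). Zfp36l1, a paralogue that acts in lymphocyte development, was higher, at 1865 in wild type, 2638 for Line 6 and 2182 for Line 3 (0.50 and 0.22), and its dimmer probe set read 248, 263 and 267. Zfp36l2, whose loss in mice depletes blood stem cells, differed by 0.04 and 0.13, and its 3 probe sets gave 0.04 to 0.10 in Line 6 and 0.13 to 0.19 in Line 3. The fourth gene of the list, Zfp36l3, was not among the members. Among the 10 subunits of the CCR4-NOT deadenylase measured, none differed by 1.5-fold in both lines. Of these, 5 were higher in both and 1 lower, where 49.0% and 30.2% of all genes were, and the medians were 0.16 and 0.12.

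Zfp36 is an immediate early gene, and it had the same order of arrays as the summed intensity of 12 immediate early genes, which was 39263 in wild type, 21376 for Line 6 and 37189 for Line 3. Of those 12, 8 were lower in both lines (all genes 30.2%) and 6 were 2-fold lower in Line 6 (all genes 2.39%). Among the 6 were Fos (7981, 3915 and 7276) and Egr1 (3690.4, 1313 and 4086). Neutrophils also carry much Zfp36 message, and 10 of 12 neutrophil markers were lower in both lines (all genes 30.2%), with sums of 162304, 122421 and 103567. The part of either in the Zfp36 difference was not tested, and in such mixed cells fewer cells of a type and less RNA per cell cannot be told apart. Line 6 was the lowest array for Zfp36 and for the immediate early sum, and Line 3 was the lowest for the neutrophil sum. In Line 3 Zfp36 differed from wild type by -0.32. There Egr1 (0.15), Fosb (0.39), Ier3 (0.51) and Jun (0.17) were above wild type, and the 8 genes lower in both lines were below it. Whether these orders bear on the Zfp36 difference was not tested.

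Of 11 listed RNA-binding and ribosome-associated members, 10 were measured, with medians of 0.15 for Line 6 and 0.22 for Line 3. Zfp346, which binds double-stranded RNA, read 195 in wild type, 317 for Line 6 and 312 for Line 3 and was the 1 gene past 1.5-fold higher in both lines. Zfp598, the ubiquitin ligase that marks collided ribosomes, read 765, 981 and 979, the same difference in both lines (0.35). Zfp638, which recruits the HUSH complex to silence unintegrated retroviral DNA, was higher by 0.23 and 0.43, and Zfp326, a partner of RNA polymerase in splicing, by 0.56 and 0.12. Zfp106, an RNA-binding protein needed by motor neurons, differed by 0.01 and 0.23. Zfp385a (-0.23 and -0.14) and Zfp385c were lower in both.

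Zinc finger partners of chromatin complexes split into both directions. Of 15 listed, 11 were measured. In both lines 6 were higher and 4 lower, where 49.0% and 30.2% of all genes were, and the medians were 0.14 and 0.21. The lower ones were Zfp516, Zfp281, Zfp217 (-0.10 and -0.36) and Zfp518a (-0.06 and -0.39), of which Zfp516 and Zfp217 encode known LSD1 partners. On the higher side were Zfp296, Zfp219 (0.55 and 0.81), Zfp410, an activator of the NuRD gene Chd4 (0.50 and 0.52), and Zfp518b, a partner of the histone methyltransferase EHMT2 (0.48 and 0.42). Zfp644, which also works with EHMT2, differed by 0.19 and 0.29, and Zfp592 by 0.14 and 0.21. Zfp687 was lower in Line 6 (-0.35) and higher in Line 3 (0.11). Kdm1a itself read 2104 in wild type, 2575 for Line 6 and 2979 for Line 3. Chd4 differed by 0.10 in both lines.

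Of 9 listed KRAB proteins with known retroelement or imprint targets, 6 were measured. On the deposited scale 4 of the 6 were above wild type in both lines and none below in both, where 49.0% and 30.2% of all genes were, with medians of 0.33 and 0.37. Zfp809, which silences murine leukaemia viruses at their primer binding site, read 1066 in wild type, 1755 for Line 6 and 1563 for Line 3 (0.71 and 0.55). Zfp932, a repressor of endogenous retroviruses, read 341, 446 and 682 (0.37 and 0.97). Zfp568, which represses a placental Igf2 transcript, differed by 0.28 and 0.48, and Zfp708 by 0.50 and 0.27. Zfp708 read 73.4, 110 and 91.7, so it passed the limit through Line 6 alone and had to be above wild type there. Zfp445, which guards imprints, read 1007, 1120 and 969, and Zfp961 read 506, 519 and 449, so these brightest probe sets were lowest in Line 3. Their small Line 6 differences (0.15 and 0.03) turn below 0 under centring. The other 2 probe sets of Zfp445 lay below wild type in Line 6 (-0.04 and -0.23) and above it in Line 3 (0.07 and 0.16). No order of the arrays thus holds for Zfp445 over its probe sets.

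The corepressors that KRAB proteins use were measured alongside. Of 22 genes of this machinery, 16 were higher in both lines and 3 lower, where 49.0% and 30.2% of all genes were, with medians of 0.23 and 0.22. Trim28 read 2466 in wild type, 3296 for Line 6 and 3807 for Line 3 (0.42 and 0.62), and Setdb1 read 1168, 1461 and 1625. Chd3, a NuRD helicase gene, was the 1 gene past 2-fold in both, at 196, 482 and 485 (1.23 and 1.24). Resf1 was lower, by -0.07 in Line 6 and -0.64 in Line 3.

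Of 14 listed blood and lymphoid factors, 10 were measured, and none differed by 1.5-fold in both lines on its brightest probe set. Zfp318, needed for IgD expression in B cells, read 370 in wild type, 477 for Line 6 and 496 for Line 3. Zfp90 read 300.4, 413 and 434, and Zfp467 read 144, 199.9 and 166. Zfp608, a repressor of the Rag genes in thymocytes, read 772, 779 and 695, and Zfp335, needed for T cell maturation, read 202, 207 and 136, so both were lowest in Line 3. Zfp148 differed by 0.09 and 0.01. The summed intensity of 7 B cell markers was 3348 in wild type, 9886 for Line 6 and 3636 for Line 3. None of the 10 factors was past 1.5-fold in Line 6 on its brightest probe set. Other probe sets of Zfp467 (1.23 and 0.69), Zfp148 (0.79) and Zfp318 (0.64) were past it there. That Zfp318 probe set was also past it in Line 3 (0.93). Zfp521, a stem cell factor, was listed but was not among the members.

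**Figure D4:**
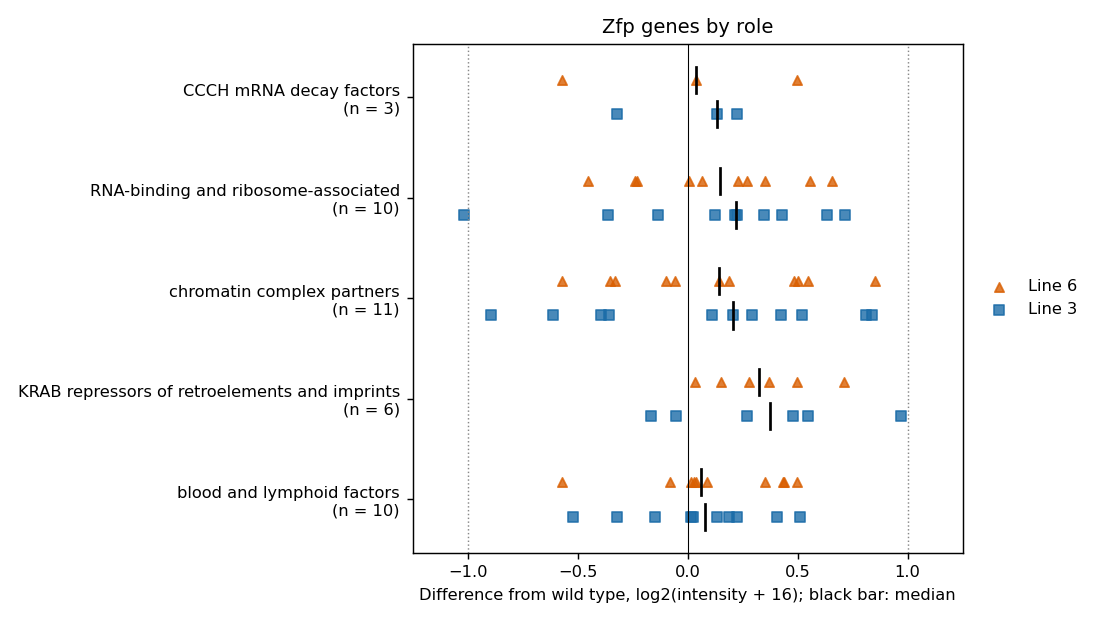
Difference from wild type on the log2(intensity + 16) scale, deposited scaling, of measured Zfp genes in 5 lists by role, for Line 6 (triangles) and Line 3 (squares), with the list median as a black bar; dotted lines mark 2-fold. The list medians lie between 0.04 and 0.33 in Line 6 and between 0.08 and 0.37 in Line 3, and single genes of most lists lie on both sides of 0; centring shifts the Line 6 points downward.

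The second question was how Line 3 differed from Line 6. The median member difference, Line 3 minus Line 6, was 0.09, and 0.29 after centring, against 0.04 over all genes, with a standard deviation over members of 0.36. Of the members, 3 were at least 2-fold higher in Line 3, where 0.714% of all genes were, and 1 was lower, where 1.71% of all genes were. At 1.5-fold, 24 were higher (9.64%, all genes 4.33%) and 5 lower (2.01%, all genes 5.64%). Of the 249 members, 16 passed the limit through Line 3 alone and had to be higher there than in Line 6. Another 7 passed through Line 6 alone and had to be lower in Line 3. The limit thus fixed the direction of part of these counts. None of the 3 higher members reached 100 on the wild type or the Line 6 array.

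Zfp184 had the largest difference between the lines. It read 45.2 in wild type, 20.3 for Line 6 and 101 for Line 3, 1.69 from Line 6 to Line 3, and passed the limit through Line 3 alone. Zfp438 read 39.4, 48.2 and 121, and Zfp975 read 47.7, 60.0 and 142. Zfp593, the homologue of a yeast ribosome export factor, read 464, 391 and 771, a difference of 0.95, but its other probe set was dim and level (43.1, 35.1 and 38.9). Zfp629 read 273, 333 and 620.2, and Zfp94 read 67.6, 82.8 and 161. The second Zfp629 probe set was highest in Line 6 (72.0, 101 and 74.3), and with the median of both its Line 3 difference from wild type was 0.59 in place of 1.14. On the brightest probe sets of all 6, Line 3 was the highest array, but the 6 were picked for the largest differences between the lines. Zfp184, Zfp438, Zfp975 and Zfp94 also passed the limit through Line 3 alone, so Line 3 had to be their highest array.

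On the lower side, Zfp503, a repressor of the NET family, read 254 in wild type, 206 for Line 6 and 89.4 for Line 3 (-1.08 from Line 6 to Line 3), and its second probe set had the same order (83.8, 43.7 and 33.6). Under quantile normalization it lay short of 2-fold (-0.91), as it did under cyclic loess (-0.96) and centring (-0.87). Zfp952 read 375, 359 and 201. Zfp597 read 397, 367 and 222, and 2 of its other 3 probe sets had the same pattern, with differences from wild type of -0.72 and -0.77 in Line 3. Zfp207 differed by -0.63 between the lines, and 5 of its 6 probe sets lay below wild type in Line 3, by -0.36 to -0.75, while the other gave 0.05, and all 6 lay above wild type in Line 6. Zfp420 (-0.73) and Zfp385c (-0.56) completed the 6, and the second Zfp420 probe set was higher in Line 3 than in Line 6 (67.6 against 45.1).

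Many Zfp genes lie side by side, so runs of neighbours were described too. A run was a stretch of the RefSeq gene order in which consecutive members had at most 3 other protein-coding genes between them, with at least 4 members. The gene table placed 247 members, and 90 of them lay in 13 runs. Members inside runs had medians of 0.22 for Line 6 and 0.26 for Line 3, and the 159 others 0.20 and 0.36. Those in runs were dimmer, with a median intensity of 236 against 399.

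The runs did not move as blocks. The run from Zfp398 to Zfp467 was the 1 in which all 7 members were above wild type in both lines, by 0.03 to 0.54 in Line 6 and 0.15 to 0.79 in Line 3, and under centring its lowest Line 6 members lie below 0. On the deposited scale the runs from Zfp708 to Zfp493 and from Zfp51 to Zfp40, with 14 members each, had higher medians in Line 6 (0.31 and 0.32) than in Line 3 (0.18 and 0.10). Centring lowers Line 6 more than Line 3, so it turns the order in the first of these runs and brings the medians close in the second. Zfp708, Zfp458 and Zfp493 in the first and Zfp983 in the second passed the limit through Line 6 alone, and Zfp945 in the second through Line 3 alone. The run from Zfp180 to Zfp94 had a lower median in Line 6 (0.13) than in Line 3 (0.38). All 7 of its members were higher in Line 3 than in Line 6, by 0.03 to 0.84. Zfp94, at 0.84, and Zfp61 passed the limit through Line 3 alone and had to be higher there. The run from Zfp868 to Zfp866 had medians below 0 in both lines (-0.13 and -0.10). Zfp882 lies in a run of 4 with Zfp709, Zfp617 and Zfp961, whose medians were 0.17 and -0.01. Genes in such runs can be close copies, and probes of one may bind transcripts of another.

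**Figure D5:**
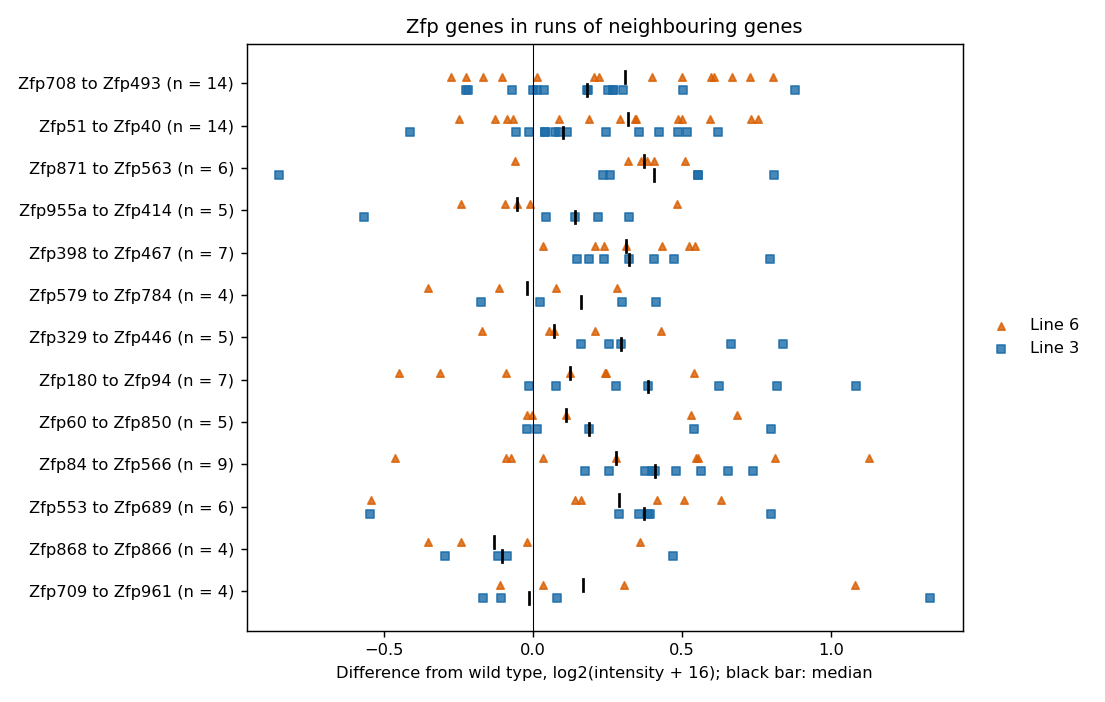
Difference from wild type on the log2(intensity + 16) scale, deposited scaling, of the 90 Zfp genes in 13 runs of neighbouring genes, for Line 6 (triangles) and Line 3 (squares), each run named by its first and last member, with the run median as a black bar. Members of most runs lie on both sides of 0, and the run from Zfp398 to Zfp467 has all 7 members above 0 in both lines, though centring moves its lowest Line 6 members below 0.

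Promoters of the members were searched for 8 motifs on both strands over the 250 bases before the start. RefSeq promoters of protein-coding genes were found for 206 of the 249 members, and 17491 genes had one in all. Member promoters had a median of 55.0% G and C and 12 CpG dinucleotides, against 60.0% and 16 for genes past the intensity limit. Shares are given for members, then for genes past the intensity limit, then for all promoters. The CCAAT box (CCAAT) was in 48.5%, 36.7% and 36.3%, so it was more frequent in members than in either. The GC box (GGGCGG) was in 45.1%, 59.6% and 42.7%, lower in members than in other genes past the limit. The ETS site (CCGGAAG) was in 18.0%, 14.7% and 9.12%, and the TATA box (TATAAA) in 6.31%, 6.16% and 12.4%. The cyclic AMP response element (TGACGTCA) was in 3.40%, 2.76% and 2.01%, the EGR site (GCGGGGGCG) in 2.43%, 4.69% and 3.38%, and the YY1 site (AAGATGGCG) in 0.971%, 1.27% and 0.698%. These motifs were chosen with the sequences in view, a match is no evidence of binding, and a CCAAT match can overlap another, as it does with the TATA box of Zfp36l1. Zfp36 was 1 of 5 members with the EGR letters, together with the GC box and ETS letters, Zfp882 was 1 of 2 with the YY1 letters, and Zfp11 matched none of the 8.

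The letters ACTACAATT, which begin the site of the zinc finger activator ZNF143, were in 3.40% of member promoters, 0.853% of those of genes past the limit and 0.526% of all. The 7 matches are shown on the strand of those letters, which are in capitals, with up to 7 bases on each side, because they share more than was searched for: 6 of the 7 go on with ccc, and the same 6 lie within 70 bases of the start.
Zfp1 (chr8:111643413-111643435, minus strand): gtgtaggACTACAATTcccataa
Zfp58 (chr13:67500535-67500557, plus strand): tggccagACTACAATTcccacaa
Zfp108 (chr7:24254722-24254744, minus strand): ctccagaACTACAATTcccagaa
Zfp111 (chr7:24208380-24208399, minus strand): acttACTACAATTgtctttc
Zfp128 (chr7:12881158-12881177, minus strand): tgagACTACAATTcccagaa
Zfp180 (chr7:24081870-24081892, minus strand): caatggaACTACAATTcccagaa
Zfp692 (chr11:58307014-58307036, plus strand): aaggctaACTACAATTcccggca
These 7 genes did not differ as a group, with medians of 0.13 for Line 6 and 0.29 for Line 3 against 0.23 and 0.29 for members without the letters. Zfp1 was the highest of them (0.59 and 1.09) and Zfp108 the lowest (-0.45 and -0.01). Zfp108, Zfp111 and Zfp180 lie in the same run of neighbours.

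Members were also read by other probe sets. For 98 members, 172 further probe sets reached the limit, and 120 of them had the sign of the brightest one in Line 6 and 118 in Line 3. For the 28 such members past 1.5-fold in a line, 30 of 37 further probe sets agreed in sign in Line 6 and 27 of 37 in Line 3. Zfp771 had probe sets past 1.5-fold in opposite directions in Line 6, one with 90.6, 154 and 79.3 for wild type, Line 6 and Line 3, and another with 108, 46.8 and 40.0. Its brightest read 624, 894 and 766, short of 1.5-fold in either line. The brightest probe set had the plain _at suffix for 219 members, and for 11 it carried the _x_at suffix of probe sets that may bind other transcripts.

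Other zinc finger families lay on both sides of wild type. Of 37 expressed Zbtb genes, whose proteins join a BTB domain to fingers, 22 were higher in both lines and 9 lower, where 49.0% and 30.2% of all genes were, with medians of 0.22 for Line 6 and 0.17 for Line 3. The 12 Zscan and Zkscan genes had medians of 0.19 and 0.30. The 12 Klf genes had -0.21 and -0.42, and 7 were lower in both lines. The differences between families were not tested.

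The arrays differed in cell markers that stand beside these results. Kit, a receptor of progenitor cells, read 603 in wild type, 899 for Line 6 and 923 for Line 3. All 5 measured stem and progenitor markers were higher in both lines (all genes 49.0%). Neutrophil genes such as Ltf and Camp were bright although the cells were sorted against lineage markers. Macrophage markers were higher in both lines in 6 of 8 cases (all genes 49.0%), and 4 of 5 mast cell and basophil markers were 2-fold higher in Line 3 (all genes 3.59%). Xist was higher and the Y-linked Eif2s3y lower in both lines (2325 in wild type, 978 for Line 6 and 1031 for Line 3). The part of these in the Zfp differences was not tested.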

How the data were processed

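The deposited values are intensities on a linear scale, 1 per probe set and array, for 45037 probe sets. The labels and file headers used here state no summary method, scaling or software for them. Per the labels' protocols, RNA was amplified and biotin-labelled from 3 ug of total RNA. Symbols came from the platform annotation through Entrez identifiers (gene table of GRCm38.p6). The brightest single-symbol probe set by mean represented each gene, and log2(intensity + 16) was used. With 1 array per genotype no test was run for the main results; a gene counted past 2-fold or 1.5-fold, beside the same count over all 10926 genes. Depth does not apply, and the number of arrays limits the precision.

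Members, lists and rules were chosen with earlier results of these data known. Named were the 10 leading genes per direction in both lines, 6 per direction between lines, the 10 brightest, the members of 5 lists, 3 on each side of the limit, and genes with opposed probe sets. Alternatives covered scaling, filter, probe set, pseudocount, fold limit and a limma fit with both lines as 1 group. The procedure was tested on simulated data. Python 3.11.15, pandas 2.3.3, R 4.3.3 and limma 3.58.1 were used.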

Additional observations from a re-analysis of the deposited data

Results flagged for a closer look

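Zfp184 was the 1 member that differed by over 1.5-fold from wild type downward in Line 6 (-0.75) and upward in Line 3 (0.94), which put Line 3 above Line 6 by 1.69 on the log2 scale. This contrast was not tested, since each line had 1 array. All 3 readings lay near or below 100 (45.2 for wild type, 20.3 for Line 6 and 101 for Line 3), and with a pseudocount of 64 the difference was 0.97.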

How the results depend on the processing

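Each difference rests on single arrays. Both lines higher (1 as reported) gave 0 under quantile normalization, centring, cyclic loess, the median of all probe sets, a pseudocount of 64 and a 3-fold limit, 3 with a pseudocount of 1, 5 with no filter and 21 at 1.5-fold. Both lines lower (1) gave 0 with a filter at 200, with 100 on all arrays, with a pseudocount of 64 and at 3-fold. Treating the lines as 2 samples of one group, limma called 0 members higher and 0 lower at an adjusted p of 0.05, and 36 higher (14.5%) and 2 lower (0.803%) at that unadjusted p, against 981 (8.98%) and 745 (6.82%) of all genes, 0 of them at the adjusted p. For Line 6 higher (3), the counts were 1, 0 and 1 under quantile, centring and loess, 12 with no filter, 6 and 1 with pseudocounts of 1 and 64, 33 at 1.5-fold and 0 at 3-fold. For Line 6 lower (1), they were 0 with either stricter filter, 2 and 0 with pseudocounts of 1 and 64, 4 at 1.5-fold and 0 at 3-fold. For Line 3 higher (11), they were 19 with no filter, 6 with either stricter filter, 7 with the probe set median, 2 with a pseudocount of 64, 59 at 1.5-fold and 0 at 3-fold. For Line 3 lower (3), they were 1 and 0 with the stricter filters, 5 with plain _at probe sets, 1 with a pseudocount of 64, 9 at 1.5-fold and 0 at 3-fold. For Line 3 above Line 6 (3), they were 6, 9 and 6 under quantile, centring and loess, 8 with no filter, 0 with either stricter filter and with a pseudocount of 64, 24 at 1.5-fold and 1 at 3-fold. For Line 3 below Line 6 (1), they were 0 under the 3 scalings, with 100 on all arrays, the probe set median, a pseudocount of 64 and 3-fold, 3 with no filter and 5 at 1.5-fold. Members lower in both lines by any size (38) were 64 with no filter, over 336 genes. The Line 6 median (0.20) was 0.0986 under quantile, 0.0842 under loess and -0.033 under centring, and the median between lines (0.09) was 0.29 under centring. Beyond the filters and limits, which change the genes or the threshold by construction, the cause was not tested. Of the values of named members under the alternatives, 1835 stayed on their side of 2-fold, 33 fell short of it, 12 passed it and 1 passed it with the sign turned (Zfp771 in Line 3, -1.14 with plain _at probe sets). Of all 1881 such values 84 changed sign, 29 of them under centring and 27 with the probe set median. The counts for single lines and for any size were added after seeing the data. No paired analysis was possible because each genotype has 1 array, and for the same reason no array could be left out.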
